A study of Mus musculus with 12 samples.

Results

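A set of 10 genes of the interleukin-6 (IL-6) cytokine family was followed in sorted hepatocytes of the p16-Tom mouse: the ligands Clcf1, Ctf1, Lif, Il6 and Osm, the receptor chains Il6st, Lifr, Osmr and Il6ra, and the inhibitor Socs3. They were chosen by name from the 54839 features of the table, with earlier results of these data known. All 10 members were found by matching Ensembl identifiers to mouse symbols. Bulk polyA RNA-seq had been performed on 12 libraries in 4 groups of 3, namely Tom- oil, Tom+ oil, Tom- CCl4 and Tom+ CCl4. All mice were C57BL/6 males heterozygous for p16-CreERT2 and the R26-CAG-LSL-tdTomato-WPRE reporter, so that a cell with p16Ink4a promoter activity when tamoxifen is given turns permanently red (Tom+) and the rest stay unlabelled (Tom-). Both treatment arms therefore carried Cre, reporter and tamoxifen, and differed in repeated injections of corn oil alone or of CCl4, a hepatotoxin that injures cells around the central vein, in corn oil. Live cells were separated by flow cytometry on tdTomato after hepatocyte pelleting, and no marker of other liver cell types is stated to have been part of the gate. The ages of the mice are not given in the sources used here, nor is it stated whether a Tom+ and a Tom- library of one number came from one mouse.

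Cytokines of this family signal through shared receptor chains. Each ligand assembles a complex around gp130, the product of Il6st: IL-6 first binds the IL-6 receptor alpha chain (Il6ra), LIF, Clcf1 (cardiotrophin-like cytokine factor) and Ctf1 (cardiotrophin-1) use the LIF receptor (Lifr), and oncostatin M (Osm) uses the oncostatin M receptor (Osmr). The complex activates Janus kinases and the transcription factor STAT3, and in hepatocytes this pathway is known for driving the acute phase response. Socs3, itself switched on by STAT3, binds gp130 and shuts the signal down.

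STAT dimers bind palindromes of the form TTCNNNGAA, which reads the same on both strands. That motif was searched in the 250 bases before each RefSeq gene start (GRCm38.p6), and it is shown here because Socs3 serves below as the family's feedback gene. Of the 8 members with a promoter entry (9 promoters, since Lifr has 2), 1 held it, namely Socs3; over all 32851 promoters of that length the share was 7.02%. Clcf1 and Osm had no entry. The Socs3 copy, TTCTTAGAA in capitals below, begins 154 bases upstream of the start, at chr11:117969512-117969520 on the minus strand. The stretch printed is chr11:117969452-117969616, the 165 bases of the window that lie outside every exon annotated for Socs3 in GENCODE M21, and it was taken from RefSeq. The longer Socs3 gene model of the deposited counts spans chr11:117966079-117970047, so the stretch lies inside that model and is upstream of the RefSeq start only.
Socs3 upstream: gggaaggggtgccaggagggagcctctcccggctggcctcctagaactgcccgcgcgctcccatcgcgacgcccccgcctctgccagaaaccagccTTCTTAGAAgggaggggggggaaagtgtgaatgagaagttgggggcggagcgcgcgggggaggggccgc
The study's qPCR primers for Clcf1 and Ctf1, the ligands with counts in every library, are shown because they mark the stretches of these messages it assayed. By qPCR the study reported more Lif and Ctf1 mRNA in Tom+ than in Tom- hepatocytes, a different measure from the counts given below. All 4 primers matched their gene and no other gene of GENCODE M21, within coding sequence. The Clcf1 forward primer crosses from exon 2 into exon 3 (chr19:4220329-4222078, plus strand), with the exon 3 bases in capitals, and the reverse primer lies in exon 3 (chr19:4222152-4222172).
Clcf1 forward: cttagctgggacctacCTGAA
Clcf1 reverse: ccacacttccaagttgaccgt
The Ctf1 primers lie in exon 2 (chr7:127713963-127713983, plus strand) and exon 3 (chr7:127717007-127717027).
Ctf1 forward: catttggaggccaagatccgc
Ctf1 reverse: aaagggctctccctgttgctg

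Library totals ranged from 37568584 to 75331424 counts, and levels are given as CPM, in which counts are scaled to a library total adjusted by the TMM method, or, where genes are compared with one another, as TPM, in which counts are divided by gene length before scaling. The tdTomato reporter went against the label in 2 oil libraries: Tom- oil replicate 1 held 1794 CPM against 157 and 143 CPM in the other Tom- oil libraries, and Tom+ oil replicate 2 held 135 CPM against 1546 and 1225 CPM. In CCl4 it followed the labels, with 120 to 263 CPM in Tom- and 1316 to 1369 CPM in Tom+. Cdkn2a, the gene of p16Ink4a and Arf, had 18, 8 and 21 counts in Tom- CCl4 against 6, 0 and 1 counts in Tom+ CCl4, and 0 to 8 counts in the oil libraries. Hepatocyte markers were strongly expressed throughout: the summed level of 10 hepatocyte markers, among them albumin, ranged from 95500 to 141000 CPM.

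Per transcript length, the receptor chains Lifr, Il6st and Il6ra were far more abundant than the ligands, whereas Osmr was not. Lifr came first with 134 to 333 TPM over the 12 libraries, and its range did not touch that of any other member. Il6st followed with 28.3 to 42 TPM, and Il6ra with 12.7 to 41.5 TPM, so that those neighbours in the order overlapped. Socs3 ranged from 3.3 to 19.8 TPM and Ctf1 from 2.41 to 5.62 TPM, again overlapping. Osmr, the receptor chain for oncostatin M and, with another partner, for IL-31, was much lower at 0.158 to 0.671 TPM, and Clcf1 lay at 0.0899 to 1.1 TPM, a range that includes all of Osmr's.

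**Figure D1:**
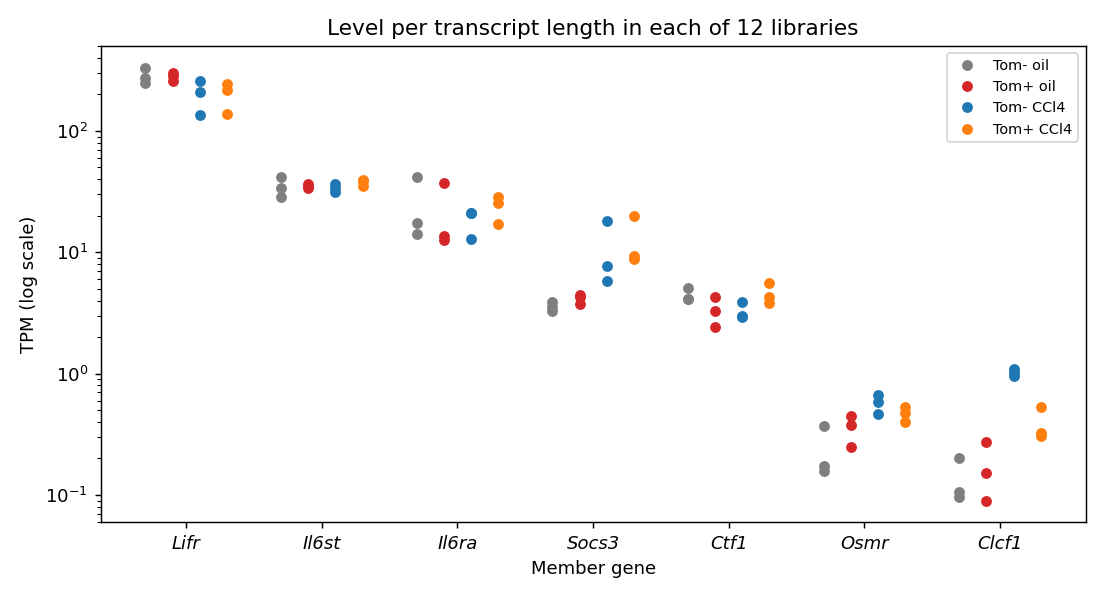
Level per transcript length (TPM, log scale) of the 7 members that passed the low-count filter; each point is 1 of the 12 libraries, coloured by group. Lifr stands apart at 134 to 333 TPM, whereas Osmr and Clcf1 lie at about 1 TPM or less in every library.

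Osm, Lif and Il6 were at or near the limit of detection. Osm had no count in any of the 12 libraries; 3 counts, the limit that a count of 0 allows, would be 0.0369 to 0.0829 CPM depending on the library, which covers counting error only. Lif, the cytokine that names LIFR, had 11 counts in all: 4 in Tom- oil replicate 3, and 1 and 6 in Tom+ CCl4 replicates 1 and 2. Il6 had 9 counts in all: 2 in Tom- oil replicate 3, 2 in Tom+ oil replicate 3, 4 in Tom- CCl4 replicate 2 and 1 in Tom+ CCl4 replicate 1. No group had a count of either gene in all of its libraries. These 3 genes did not pass the filter on low counts, so that 7 of the 10 members were tested and no difference of Lif, Il6 or Osm between groups was detectable at this depth.

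Clcf1, which encodes a ligand acting on the CNTF receptor, gp130 and LIFR, was the member that differed most between groups. Its deposited counts were 6, 16 and 8 in Tom- oil and 16, 23 and 6 in Tom+ oil, and they were 62, 66 and 84 in Tom- CCl4 and 60, 21 and 22 in Tom+ CCl4. In CPM the Tom- CCl4 libraries held 1.57, 1.82 and 1.77, all above the 0.739, 0.458 and 0.459 of Tom+ CCl4. Both CCl4 groups lay above every oil library (0.147 to 0.439 CPM), a separation shared by 7.65% of all genes. The margin was narrow. Tom+ CCl4 replicate 2 held 0.458 CPM, and Tom+ oil replicate 2, whose reporter goes against its label, held 0.439 CPM. The mean of Clcf1 was 0.211 ± 0.086 CPM in Tom- oil and 1.72 ± 0.14 CPM in Tom- CCl4 (SD, n = 3 each).

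The comparison of CCl4 with oil asks how each fraction differed between the treatments. With edgeR's quasi-likelihood test over all genes, Clcf1 rose 8-fold with CCl4 in Tom- cells (log2 fold change 3.0 ± 0.45 SE, Benjamini-Hochberg adjusted p = 0.00117). A gene was called at an adjusted p under 0.05 and a log2 fold change beyond 0.75. By this rule 7.92% of the 17121 genes tested were called in that comparison, against 3 of the 7 tested members, all of them higher (Clcf1, Osmr and Socs3; 6.33% of all genes were called higher). Without the 2 oil libraries whose reporter goes against the label, Clcf1 stayed called (log2 fold change 2.85, adjusted p = 0.00533). In Tom+ cells Clcf1 was 2.02-fold higher on average but did not pass (log2 fold change 1.02 ± 0.44 SE, 95% interval 0.09 to 1.96, adjusted p = 0.167; 1.52 and 0.0802 without the 2 libraries). No member was called in Tom+, where 5.24% of all genes were called. There 3 of the 7 members had an unadjusted p under 0.05, as did 4169 of all 17121 genes. DESeq2 called 1 member, Socs3, and 6.67% of all genes. The CCl4 and oil groups did not overlap for Clcf1, Lifr and Socs3 in Tom+, as for 29.3% of all genes. Over both fractions Clcf1 rose 4.02-fold (log2 fold change 2.01 ± 0.31 SE, adjusted p = 0.000707; 2.19 and 0.00162 without the 2 libraries). There too Clcf1, Osmr and Socs3 were the 3 of 7 members called, all higher, where 8.43% of all genes were called and 6.17% were called higher. This contrast counts the 2 libraries of a pair separately. With same-numbered libraries summed, so that each pair counts once, 1 member was called, Clcf1, where 4.78% of all genes were called. Over all alternatives the adjusted p of Clcf1 reached 0.0132. The comparisons share libraries: each oil and each CCl4 group enters both a treatment and a fraction contrast. With CCl4 in Tom+, 6 of 10 zone 3 (pericentral) hepatocyte markers were called higher and 7 of 10 zone 1 (periportal) markers lower. In Tom-, 1 of 10 zone 3 markers was called lower and 1 of 10 zone 1 markers higher. A response to injury and a change in which hepatocytes make up a fraction cannot be told apart in these contrasts.

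Comparing Tom+ with Tom- asks how hepatocytes labelled through the p16Ink4a promoter differ from their neighbours. In CCl4, Clcf1 was 3.08-fold lower in Tom+ than in Tom- (log2 fold change -1.62 ± 0.41 SE, adjusted p = 0.0355), and it was the 1 member of 7 called, where 1.96% of all genes were called and 1.74% were called lower. Within each same-numbered pair the Tom+ level was 0.471, 0.251 and 0.259 of the Tom- level. The groups did not overlap, as was the case for Il6st among the other members and for 28.7% of all genes. The call was lost when any 1 of the 6 CCl4 libraries was left out, with adjusted p between 0.0597 and 0.138 and log2 fold changes between -1.90 and -1.50, whereas a block for same-numbered libraries, with which 3.98% of all genes were called, gave an adjusted p of 0.00827. In oil the difference was 0.36 ± 0.47 SE (log2, adjusted p = 0.909) and turned to -0.31 without the 2 doubted libraries. The difference between these differences, the interaction, was -1.99 ± 0.62 SE (log2; adjusted p = 0.114) without a block and -1.99 (adjusted p = 0.0409) with it; 1.17% of all genes were called for the interaction without the block and 5.48% with it. Without the 2 oil libraries the interaction was -1.33 (adjusted p = 0.386).

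Markers of some other liver cells also differed between these groups. The summed level of 10 endothelial markers was 178, 141 and 211 CPM in Tom- oil and 222, 158 and 259 CPM in Tom+ oil. It reached 385, 379 and 365 CPM in Tom- CCl4 and fell back to 185, 215 and 255 CPM in Tom+ CCl4. All 10 endothelial genes were called higher with CCl4 in Tom- (9 without the 2 oil libraries) and 0 in Tom+, and 6 of the 10 were called lower in Tom+ than in Tom- in CCl4. Of 9 stellate cell and fibroblast markers tested, 7 were called higher with CCl4 in Tom- and 6 in Tom+, with sums of 9.26 to 26 CPM in oil and 54.7 to 115 CPM in CCl4. Macrophage markers summed to 18 to 141 CPM in oil and 71.2 to 209 CPM in CCl4, with 0 of 10 called in either fraction, although the log2 fold changes of all 10 were positive in both (median log2 fold change 1.43 in Tom- and 0.58 in Tom+). Cholangiocyte markers summed to 19.4 to 32.6 CPM over the 12 libraries, with Krt7 and Krt19 at 0 counts in oil, and neutrophil and lymphocyte markers to at most 2.24 and 1.11 CPM. In the same CCl4 fraction contrast, 5 of 10 zone 1 (periportal) hepatocyte markers were called lower in Tom+, and the median log2 fold change of 10 zone 3 (pericentral) markers was 1.17 with 0 called (7 with the block). The part of these cells in the Clcf1 result was not tested, and in bulk libraries fewer cells of a type and less RNA per cell cannot be told apart.

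**Figure D2:**
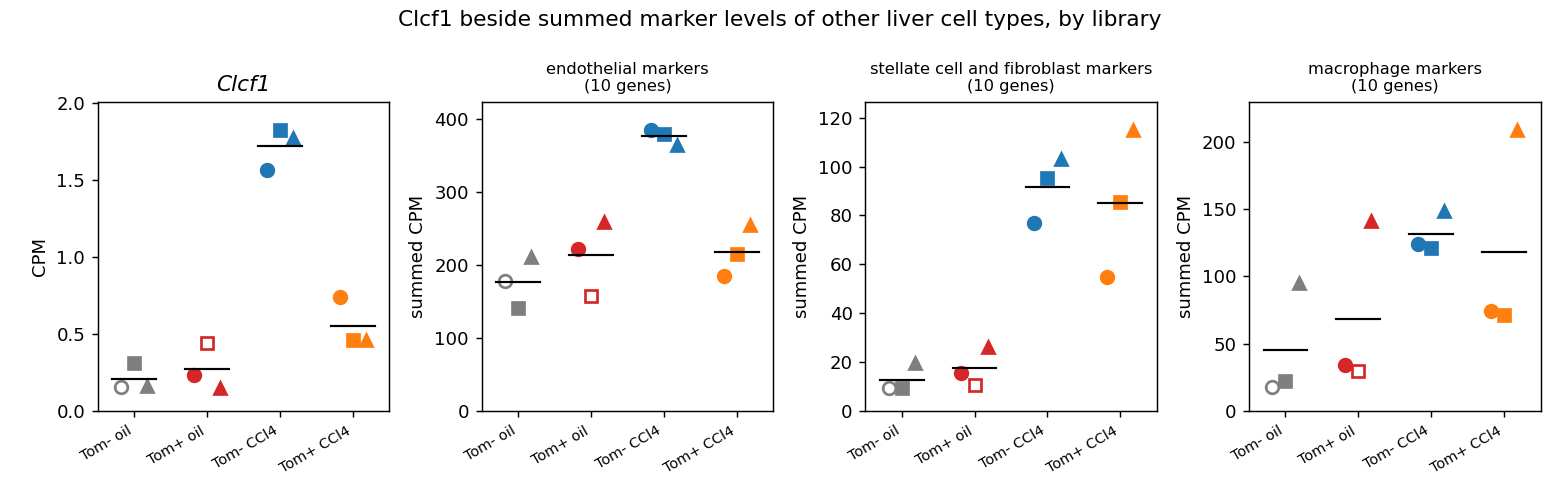
Clcf1 (CPM) and the summed CPM of endothelial, stellate cell and fibroblast, and macrophage marker genes in each library; shapes give the replicate number, open symbols the 2 oil libraries whose reporter goes against the label, and lines the mean of 3 libraries. Clcf1 and the endothelial sum are both highest in the 3 Tom- CCl4 libraries (365 to 385 CPM for the endothelial sum), whereas the stellate sum is raised in both CCl4 groups.

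Ctf1, the second ligand with counts in every library, encodes cardiotrophin-1, a cytokine known for protecting cardiac muscle cells and hepatocytes. It had 155, 160 and 153 counts in Tom- oil, 169, 99 and 141 in Tom+ oil, 126, 87 and 123 in Tom- CCl4 and 237, 122 and 199 in Tom+ CCl4. In CPM these were 4.09, 3.10 and 3.13 in Tom- oil, 2.44, 1.89 and 3.45 in Tom+ oil, 3.19, 2.40 and 2.60 in Tom- CCl4, and 2.92, 2.66 and 4.15 in Tom+ CCl4, so that every pair of groups overlapped. Tom+ against Tom- gave a log2 difference of 0.25 in CCl4 (95% interval -0.29 to 0.78, adjusted p = 0.603) and of -0.41 in oil (-0.94 to 0.12, adjusted p = 0.788). CCl4 against oil gave -0.33 in Tom- (-0.87 to 0.21) and 0.33 in Tom+ (-0.21 to 0.86), neither of them called. The interval in CCl4 reached just past the fold threshold, and the interaction of 0.66 did not pass either (adjusted p = 0.339). Exons of Ctf1 share 87 bases with Ctf2 on the opposite strand, and those of Clcf1 share 311 bases with AC109138.7 on the same strand, so that a few reads of either gene could have been counted for the other.

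**Figure D3:**
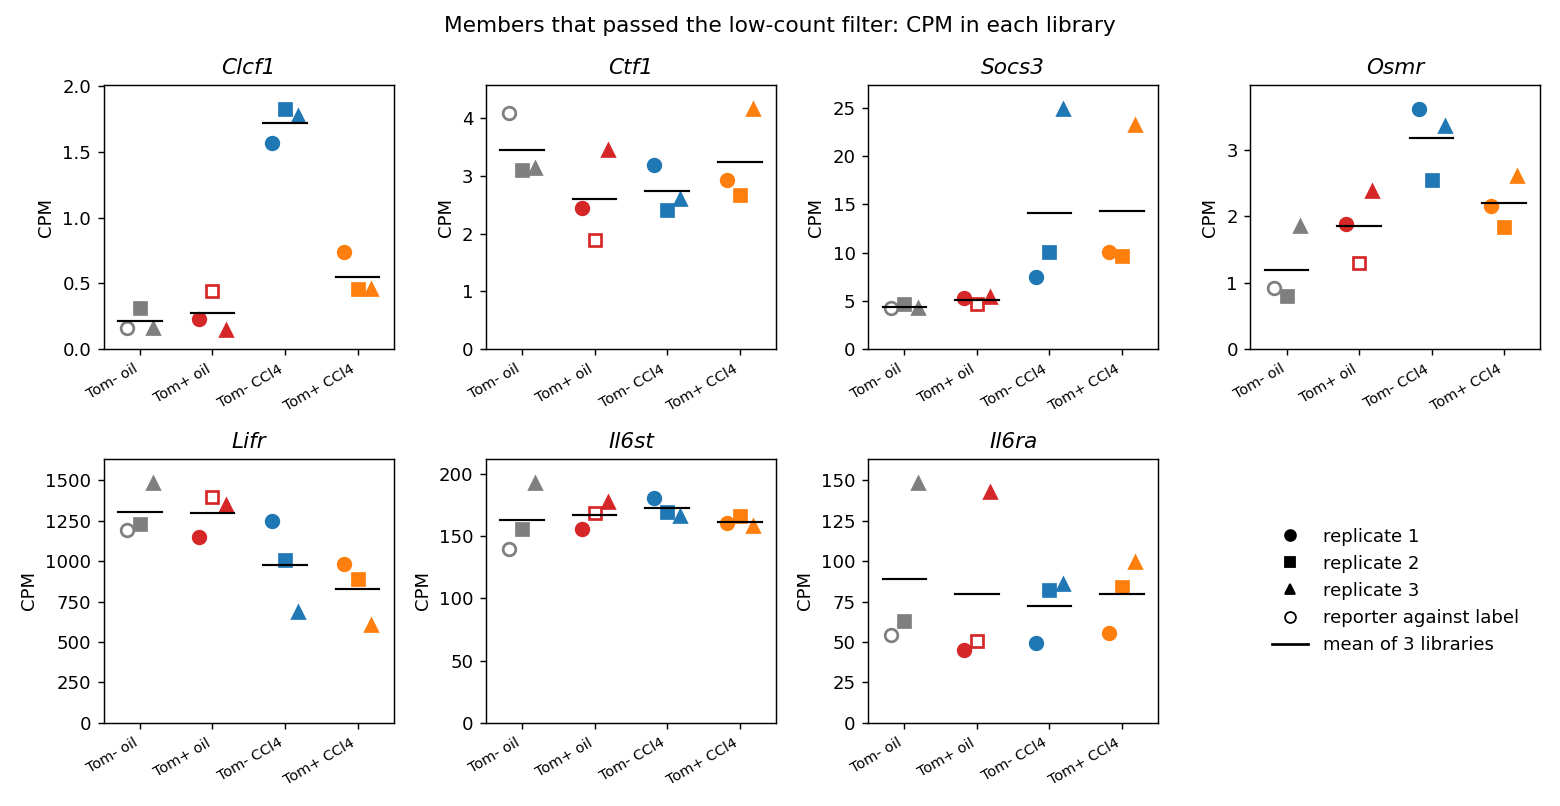
CPM of the 7 tested members in each library of the 4 groups; shapes give the replicate number, open symbols the 2 oil libraries whose reporter goes against the label, lines the mean of 3 libraries, and each axis starts at 0. Clcf1 and Osmr are highest by mean in Tom- CCl4, Socs3 is raised in both CCl4 groups and highest in replicate 3 of both, and Il6st hardly moves.

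The receptor chains followed no common pattern. Il6st, the gp130 chain shared by the complexes of the 5 ligands, was the steadiest member, at 139 to 193 CPM in all 12 libraries. Its log2 differences were -0.09 (95% interval -0.32 to 0.14) for Tom+ against Tom- in CCl4, 0.04 (-0.19 to 0.27) in oil, 0.08 (-0.15 to 0.31) for CCl4 against oil in Tom- and -0.05 (-0.28 to 0.18) in Tom+. All 4 intervals thus lay within the fold threshold.

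Lifr, the receptor chain for LIF, cardiotrophin-1 and Clcf1, was present at 1190, 1231 and 1484 CPM in Tom- oil and at 1148, 1398 and 1347 CPM in Tom+ oil. In CCl4 it was present at 1245, 1005 and 685 CPM in Tom- and at 982, 892 and 604 CPM in Tom+. The 3 Tom+ CCl4 libraries lay below all 3 Tom+ oil libraries, while the Tom- groups overlapped. Over both fractions Lifr was 1.45-fold lower with CCl4 (log2 fold change -0.53 ± 0.15 SE, adjusted p = 0.0238), short of the fold threshold and so not called. In Tom+ alone it was -0.65 ± 0.21 SE (adjusted p = 0.075) and in Tom- -0.41 ± 0.21 SE (adjusted p = 0.203). Without the 2 oil libraries the value over both fractions was -0.53 (adjusted p = 0.0813), and with same-numbered libraries summed, so that each pair counts once, it was -0.56 (adjusted p = 0.0954). In CCl4 the Tom+ level was 0.788, 0.887 and 0.881 of the Tom- level in the 3 pairs, a log2 difference of -0.25 (95% interval -0.70 to 0.21, adjusted p = 0.538).

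Osmr, the partner of gp130 for oncostatin M, rose with CCl4 in Tom- cells. It was at 0.923, 0.794 and 1.86 CPM in Tom- oil and at 3.62, 2.54 and 3.36 CPM in Tom- CCl4, groups that did not overlap (as for 36% of all genes). The change was 2.65-fold (log2 fold change 1.41 ± 0.33 SE, adjusted p = 0.0115), and 1.26 without the 2 oil libraries (adjusted p = 0.0482). Leaving out Tom- oil replicate 1 alone ended the call (1.26, adjusted p = 0.0517).

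In Tom+ cells Osmr was at 1.88, 1.30 and 2.38 CPM in oil and 2.15, 1.83 and 2.61 CPM in CCl4, which overlapped (log2 difference 0.25, 95% interval -0.43 to 0.94). Over both fractions it was 1.78-fold higher with CCl4 (adjusted p = 0.0192), a call lost without the 2 oil libraries (log2 fold change 0.66, adjusted p = 0.0914), with same-numbered libraries summed (0.73, adjusted p = 0.121), and, through the fold threshold, without Tom- oil replicate 2 (0.71) or Tom+ oil replicate 2 (0.73). In the 3 oil pairs Tom+ was 2.03, 1.63 and 1.28 times Tom-, and in the 3 CCl4 pairs 0.596, 0.721 and 0.777 times, opposite directions. In oil pairs 1 and 2, however, one library's reporter goes against its label, so that pair 3 (1.28 times) is the only oil pair in which the reporter separates the fractions. Neither contrast was called by itself (adjusted p = 0.751 in oil and 0.345 in CCl4). The interaction was -1.15 ± 0.45 SE (adjusted p = 0.195) without the block and -1.21 (adjusted p = 0.0218) with it. The endothelial sums given for Clcf1 were also highest in Tom- CCl4, as Osmr was on average, while those of the other groups overlapped. The part of endothelial cells in the Osmr result was not tested.

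Il6ra, the alpha chain that binds IL-6 itself, was high in both libraries of oil replicate 3. It held 148 CPM in Tom- and 143 CPM in Tom+ there, whereas the other 4 oil libraries held 45.2 to 63.1 CPM. The CCl4 libraries held 49.3, 81.9 and 85.6 CPM in Tom- and 55.8, 83.9 and 99.5 CPM in Tom+. No contrast was called, and the intervals were wide, from -1.08 to 1.36 for Tom+ against Tom- in CCl4 and from -1.52 to 0.93 for CCl4 against oil in Tom- (log2). Within pairs Tom+ was 0.829, 0.804 and 0.961 times Tom- in oil and 1.13, 1.02 and 1.16 times in CCl4. In oil pairs 1 and 2 one library's reporter goes against its label, so only pair 3 (0.961 times) compares fractions that the reporter separates. The interaction was 0.30 (log2, adjusted p = 0.874) without the block and 0.36 (adjusted p = 0.0366) with it, short of the fold threshold. Exons of Il6ra share 242 bases with the antisense gene Gm42809, and although the libraries were strand-specific, the strand setting of the counting is not given in the sources used here.

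Socs3, the feedback inhibitor whose upstream stretch is printed above, rose with CCl4. It was at 4.22, 4.67 and 4.27 CPM in Tom- oil and 5.33, 4.66 and 5.46 CPM in Tom+ oil. In CCl4 it was at 7.51, 10.1 and 24.9 CPM in Tom- and at 10.1, 9.69 and 23.2 CPM in Tom+. Every CCl4 library lay above every oil library, a separation shared by 7.65% of all genes, and replicate 3 was more than 2-fold above the other CCl4 libraries in both fractions.

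Over both fractions Socs3 rose 3.0-fold (log2 fold change 1.58 ± 0.32 SE, adjusted p = 0.00729). It stayed called without the 2 oil libraries (1.54, adjusted p = 0.0468) but not with same-numbered libraries summed (1.57, adjusted p = 0.0627). In Tom- it rose 3.24-fold (1.69 ± 0.46 SE, adjusted p = 0.0331), a call lost without the 2 oil libraries (1.67, adjusted p = 0.13), with no filter on low counts (1.69, adjusted p = 0.0797), without any 1 Tom- oil library, without Tom+ oil replicate 1 or 3, and without Tom- CCl4 replicate 3. Without that last library the log2 fold change dropped to 1.0 (adjusted p = 0.0778), and over all the libraries left out in turn the adjusted p ranged from 0.0133 to 0.101. In Tom+ the difference was 2.78-fold (1.47 ± 0.45 SE, adjusted p = 0.0733) and not called, with 0.94 and an adjusted p of 0.258 without Tom+ CCl4 replicate 3. DESeq2 called it in Tom+ (adjusted p = 0.02), where it called 6.67% of all genes. So did edgeR with the replicate block of the treatment contrasts (1.34, adjusted p = 0.0245), with which 6.54% of all genes were called. That block ties replicate numbers across oil and CCl4, where they do not mark shared mice, so it pairs no mice. Without the block edgeR called Socs3 when Tom- CCl4 replicate 1 (adjusted p = 0.0472) or 3 (adjusted p = 0.00961) was left out. The fractions did not differ in CCl4 beyond their spread (log2 difference 0.01, 95% interval -0.97 to 0.98). Macrophage markers summed to 149 CPM in Tom- and 209 CPM in Tom+ of CCl4 replicate 3, against 71.2 to 124 CPM in the other CCl4 libraries, and their part in the Socs3 level was not tested.

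**Figure D4:**
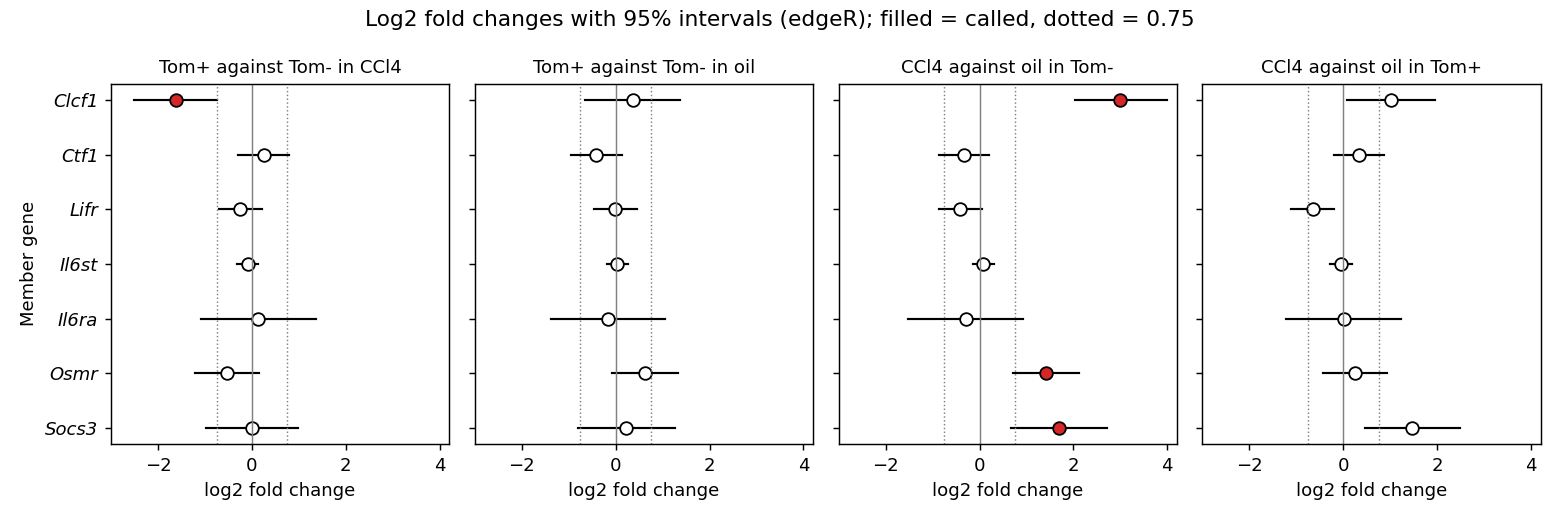
Log2 fold changes (points) with 95% intervals (lines) of the 7 tested members in 4 comparisons, from edgeR; filled points were called, and dotted lines mark a log2 fold change of 0.75. Clcf1 is called in 2 comparisons in opposite directions, -1.62 for Tom+ against Tom- in CCl4 and 3.0 for CCl4 against oil in Tom-; of these 4 comparisons Osmr and Socs3 are called in the latter alone.

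In oil no member differed between Tom+ and Tom- by edgeR: 0 of 7 were called, 0 had an unadjusted p under 0.05, and DESeq2 called 0. Of all 17121 genes 0% were called there by edgeR, with 1198 at an unadjusted p under 0.05, and DESeq2 called 15. With the replicate block 0.234% were called, no member among them.

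The other ligands and receptors of the family were scarce as well. Of 11 genes, 5 were tested and 0 were called by edgeR or DESeq2 in any of the 6 comparisons, with 0 to 3 at an unadjusted p under 0.05. Of all 17121 genes, 1198 to 6000 had such a p, depending on the comparison. Il31 had no count, and Il27, Il31ra and Il11 had no more than 10 counts in any library. Cntfr, the receptor chain specific to CNTF and Clcf1, had 4 to 52 counts per library. Ctf2 had 0 to 14 counts, Cntf 12 to 42.5, Ebi3 0 to 16 and Il27ra 8 to 48. Only Il11ra1, the IL-11 receptor chain, was well expressed, at 11 to 15.9 TPM. It was 1.42-fold lower in Tom+ than in Tom- in CCl4 (log2 fold change -0.51 ± 0.12 SE, adjusted p = 0.023), short of the fold threshold. Near-identical copies of Il11ra1 exist in the mouse genome, its counts were fractional, and its value is uncertain for that reason.

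Downstream of the receptors, of 22 genes of JAK-STAT signalling and its control 0 were called by edgeR without the block in any of the 6 comparisons. From 2 to 6 of the 22 had an unadjusted p under 0.05, as did 1198 to 6000 of all 17121 genes. At most 1 of the 22 was called by DESeq2, which called 0.0876% to 9.71% of all genes. The median log2 fold change of the 22 was 0.06 for Tom+ against Tom- in CCl4 (0.00 over all genes) and 0.04 for CCl4 against oil over both fractions. Among the kinases, Jak1 stood at 29.2 to 36.6 TPM, Tyk2 at 9.71 to 14 TPM and Jak2 at 7.08 to 11 TPM. Among the transcription factors, Stat3 stood at 38.9 to 58.7 TPM and Stat5b at 27.8 to 59.9 TPM. Every CCl4 library of Stat5b (71.5 to 110 CPM) lay below every oil library (123 to 145 CPM), a separation shared by 7.65% of all genes. Ptpn11, the phosphatase that competes with Socs3 for the same site on gp130, stood at 18.8 to 30.9 TPM. Adam10 and Adam17, proteases that can release the soluble IL-6 receptor, stood at 11 to 16.4 and 8.35 to 11.8 TPM. Of the other inhibitors Socs1 had 2 to 25 counts per library, and Socs2, a target of growth hormone signalling, stood at 1.14 to 5.83 TPM.

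Cish, an inhibitor induced by STAT5, was called by some of the fits. It was at 16.7 to 29.2 CPM in Tom- CCl4 and 8.36 to 14.8 CPM in Tom+ CCl4, groups that did not overlap, as for 28.7% of all genes. The log2 difference was -0.80 ± 0.28 SE (adjusted p = 0.119), and it was called with the block at -0.80 (adjusted p = 0.00183) and by DESeq2, which had no block, at -0.80 (adjusted p = 0.0299). In that contrast 3.98% of all genes were called with the block and 3.26% by DESeq2. The interaction for Cish was -1.29 ± 0.40 SE (adjusted p = 0.121), -1.28 (adjusted p = 0.00125) with the block and -1.28 (adjusted p = 0.018) with DESeq2. For the interaction 5.48% of all genes were called with the block and 3.43% by DESeq2. With CCl4 in Tom- DESeq2 also called Cish, at 0.75 (adjusted p = 0.0274), where it called 9.71% of all genes. With edgeR the adjusted p was 0.0912.

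Genes that STAT3 is known to switch on in hepatocytes were called in both directions. Of 32 such genes tested, 1 was called higher and 2 lower with CCl4 in Tom- (7.92% of all genes were called), and 1 higher and 1 lower in Tom+ (5.24%), with medians of -0.03 and -0.34 (log2) against 0.00 over all genes in both. Over both fractions 2 were called in each direction (8.43%). In the CCl4 fraction contrast 1 was called (1.96%), lower in Tom+, and the median was -0.36 (log2).

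The acute phase proteins serum amyloid A1 and A2 (Saa1, Saa2) fell with CCl4 in Tom- cells. Saa1 was at 1975, 1615 and 549 CPM in Tom- oil against 238, 92.2 and 171 CPM in Tom- CCl4, 8.27-fold lower (log2 fold change -3.05 ± 0.55 SE, adjusted p = 0.00745; -2.69 and 0.0352 without the 2 oil libraries). In Tom+ cells Saa1 was at 296, 308 and 463 CPM in oil and 154, 70 and 103 CPM in CCl4, a difference that did not pass (adjusted p = 0.0785). Saa2 was 11.7-fold lower with CCl4 in Tom- (adjusted p = 0.0183), a call lost without Tom- oil replicate 1 (adjusted p = 0.0502) or without the 2 oil libraries (0.0656). The 2 genes are near-identical copies whose reads the counting could split, so that they are uncertain as separate values. Myc, a growth regulator, rose 2.33-fold in Tom- (log2 fold change 1.22 ± 0.32 SE, adjusted p = 0.0206), a call lost without Tom- oil replicate 1 or 2, without Tom- CCl4 replicate 2 or 3, and without the 2 oil libraries (0.98, adjusted p = 0.0735).

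Hamp, which encodes the iron hormone hepcidin, was at 67.7, 65 and 49.7 CPM in Tom+ oil and 264, 198 and 197 CPM in Tom+ CCl4, a rise of 3.62-fold (log2 fold change 1.85 ± 0.43 SE, adjusted p = 0.0277). It lost its call when any 1 Tom+ library was left out or when the 2 oil libraries were (adjusted p = 0.0677 for the latter). Hpx, which encodes the heme scavenger hemopexin, fell 1.79-fold in Tom+ relative to Tom- in CCl4, from 7464, 6134 and 7261 CPM to 3856, 3125 and 4682 CPM (log2 fold change -0.84 ± 0.19 SE, adjusted p = 0.0258; 3.28e-05 with the block). That call was lost without any 1 CCl4 library other than Tom+ CCl4 replicate 3, with adjusted p up to 0.118. Hpx was also 1.86-fold lower with CCl4 in Tom+ (adjusted p = 0.012), a call lost without Tom+ oil replicate 3 (log2 fold change -0.73) or Tom+ CCl4 replicate 2 (adjusted p = 0.053). The zone 1 markers named above moved in the same direction in both of these contrasts (5 of 10 and 7 of 10 called lower), and their part in the Hpx result was not tested.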

How the data were processed

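The 12 bulk RNA-seq libraries described above were analysed. Per the labels and methods of the authors, reads were checked with fastp (v0.23.2) and aligned with HISAT2 (v2.1.0) against mm10, and DESeq2 (v1.42.1) was used downstream; libraries were strand-specific, and TPM were computed with TPMcalculator, but whether that program also made the deposited counts, its strand setting and the annotation release are not given in the sources used here. The authors deposited expected counts per feature, not normalized, with feature positions and lengths; in each library 30.4% to 32.9% of values above 0 were fractional, so values were rounded to whole numbers, ties to the even number, whereas the design had assumed whole counts. Of 54839 features, 54723 (99.8%) were matched to a symbol. All sample columns were used. The single-cell data were not analysed here.

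Groups came from the labels. The test was the quasi-likelihood F test of edgeR (v4.0.16, run under R v4.3.3), robust, after TMM scaling. All 12 libraries entered 1 fit, on the 17121 genes that filterByExpr retained. A gene was called at a Benjamini-Hochberg adjusted p under 0.05 over all genes tested and an absolute log2 fold change over 0.75. TPM was computed from the deposited counts and lengths. Intervals are 95%. Deviations from the group mean were positively correlated between the Tom+ and Tom- library of one number (Pearson's r across 17121 genes between 0.187 and 0.401 in all 6 pairs), so that the replicate block was taken to pair them; between treatments the numbers do not mark shared mice. Nothing states that libraries of a group came from separate mice, so p-values measure the spread between libraries. For contrasts between treatments the block was a different model, with terms for replicate number common to oil and CCl4. Alternatives were the block, DESeq2 (v1.42.0), RLE scaling, other filters, the adjusted p alone, fewer libraries, and summed pairs. The test was also tried on simulated data. Its check of recovery covered only genes above a set mean level, chosen after a first run because low-count genes were rarely recovered. Clcf1, Osmr and Ctf1, with at most 1.82, 3.61 and 4.15 CPM, lay below that level, so the check does not cover them.

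The members and the gene lists were chosen with earlier results of these data known. The rounding of ties to even and the filter of the blocked fit replaced, after first values had been seen, rounding upward and a filter of its own, both of which were kept as alternatives. Named genes are the 10 members, the other IL-6 family genes, 12 genes of the JAK-STAT list and up to 6 called STAT3 target genes per comparison and direction. Differences are given for these where they concern a member, a called gene, Cish or Il11ra1, the last 2, like the Stat5b levels by treatment, being chosen after their values were seen. Some genes covered by this rule are not reported here. Differences between treatments that passed with the block alone were added to the results set out for a closer look after first values had been seen. Figures were drawn with matplotlib (v3.10.9).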

Additional observations from a re-analysis of the deposited data

Results flagged for a closer look

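The difference between Tom+ and Tom- differed between CCl4 and oil for 4 genes when same-numbered libraries were taken as pairs, although none of the 4 passed in edgeR without that block. By list the block called 2 of 7 members tested, 0 of 5 other family genes, 1 of 22 JAK-STAT genes and 1 of 32 STAT3 targets. DESeq2, also without a block, called Cish (adjusted p = 0.018) and Hpx (adjusted p = 0.0458) but neither Clcf1 nor Osmr. Of all genes, 5.48% were called for the interaction with the block and 3.43% by DESeq2. Clcf1 had an interaction of -1.99 (log2, adjusted p = 0.0409 with the block and 0.114 without), and Osmr one of -1.21 (adjusted p = 0.0218 and 0.195). For Cish it was -1.28 (adjusted p = 0.00125 and 0.121), and for Hpx -0.84 (adjusted p = 0.000609 and 0.135). All 4 were lower in Tom+ relative to Tom- in CCl4 than in oil. These values rest in part on the 2 oil libraries whose reporter goes against the label, and without them, in the fit without the block, the adjusted p was 0.386 for Clcf1, 0.297 for Osmr, 0.196 for Cish and 0.326 for Hpx.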

How the results depend on the processing

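Over 42 member results and 897 alternative values, 822 kept their direction and their side of the threshold, 20 fell short of it, 10 newly passed it and 45 changed sign; no value that changed sign belonged to a called result. The number of members called moved as follows. In Tom+ against Tom- in CCl4 it went from 1 to 0 when 10 counts were required in every library, since Clcf1 was then not tested, and was 0 to 1 with libraries left out in turn. For CCl4 against oil in Tom- it was 1 to 3 with libraries left out, 1 of them without Tom- oil replicate 1, and 2 with no filter, with 10 counts required or without the 2 doubted oil libraries. In Tom+ it went from 0 to 1 (Socs3) with the replicate block, with the block and its own filter, and with DESeq2, and was 0 to 1 with libraries left out. Over both fractions it went from 3 to 1 with same-numbered libraries summed, to 2 with 10 counts required or without the 2 doubted oil libraries, and to 4 by adjusted p alone. For the interaction it went from 0 to 2 (Clcf1 and Osmr) with the replicate block, also with its own filter. The block changed no other member call; the cause of these shifts was not tested. The block with its own filter and rounding of ties upward were added as alternatives after seeing the data. Between treatments same-numbered libraries correlated with r of 0.00898 to 0.226, which overlaps the 0.187 to 0.401 of the pairs within a treatment. These values therefore cannot settle whether a number marks a shared batch across treatments. With the replicate block of the treatment contrasts, which pairs no mice, 9 of 10 macrophage markers were called higher with CCl4 in Tom- and 2 of 10 in Tom+. That block called 9.89% and 6.54% of all genes in these 2 contrasts.

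Differences near 0 changed sign as follows (log2). Socs3 between fractions in CCl4 was -0.008 when 10 counts were required or the 6 CCl4 libraries fitted alone, and 0 without the 2 doubted oil libraries. Without those 2 libraries Clcf1 in oil was -0.306, Il6st in oil -0.082, Il6st with CCl4 in Tom- -0.014 and over both fractions -0.024, and Il6ra with CCl4 in Tom+ -0.228. Ctf1 over both fractions was 0.003 with DESeq2, 0.002 with RLE scaling, 0.012 with 10 counts required and 0.018 with libraries summed, and Il6st was -0.009 with libraries summed. With libraries left out in turn, Tom+ against Tom- in CCl4 ranged from -0.07 to 0.343 for Il6ra and -0.523 to 0.701 for Socs3. In oil it ranged from -0.139 to 0.761 for Clcf1, -0.064 to 0.179 for Il6st, -0.067 to 0.1 for Lifr, -0.887 to 0.432 for Il6ra and -0.109 to 0.074 for Il11ra1. CCl4 against oil in Tom- ranged from -0.022 to 0.222 for Il6st and -0.556 to 0.295 for Il6ra, and in Tom+ from -0.278 to 0.731 for Il6ra. Over both fractions it ranged from -0.109 to 0.123 for Ctf1, -0.034 to 0.087 for Il6st, -0.288 to 0.216 for Il6ra and -0.021 to 0.221 for Cish. The interaction ranged from -0.291 to 1.029 for Il6ra and -0.752 to 0.471 for Socs3. Depth limits Lif, Il6 and Osm, which have too few counts for any comparison, and Clcf1, whose oil libraries hold 6 to 23 counts each.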
